A study of Mus musculus with 18 samples.

Results

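A set of 40 cell cycle and DNA replication genes was followed in mouse macrophages given a bacterial stimulus. The genes were chosen by name, with earlier results of these data known. Of the 40, 39 had a probe set assigned to them alone, out of 19475 genes measured. The exception was Ccnb1, which had no such probe set and is not described. By role, 20 of the 39 act in mitosis, 10 in the licensing and copying of DNA, 3 in nucleotide synthesis, 4 are G1 cyclins and 2 are E2F factors.

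The cells were bone marrow-derived macrophages on day 7 of differentiation, from mice of a mixed background (C57BL/6 94%, 129/Ola 6%). Mice were Wbp7+/- (HET) or Wbp7-/- (KO), so that the HET controls also carried 1 lost allele, and no wild type was included. Wbp7, listed on the array as Kmt2b, encodes a histone H3 lysine 4 methyltransferase. For either genotype, 3 arrays came from untreated cells, 3 from cells after 2 h and 3 after 4 h with 10 ug/ml of lipopolysaccharide (LPS), which makes 6 groups. The medium contained L929-conditioned medium, the usual source of the macrophage growth factor Csf1. The labels number the arrays of each group from 1 to 3 but do not say whether a number marks 1 mouse or 1 culture, so p-values measure the spread between these arrays. Arrays of the same genotype and number deviated together (r across genes 0.32 to 0.80 in 18 of 18 pairs), and each such trio is called a culture here. The probe set for Wbp7 was not called lower in KO at any time. It was 10.35 to 10.47 in untreated KO against 10.49 to 10.97 in untreated HET (adjusted p = 1 in limma), and the genotypes overlapped at 2 h and 4 h. The labels do not say which stretch was deleted, and a probe set outside it would not check the genotype.

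Cells divide by passing through G1, when cyclins D and E prepare entry into S phase, then copying their DNA, and then separating the copies in mitosis. E2F factors switch on the S phase genes, while the mitotic genes are switched on later through complexes that read CCAAT boxes and short elements named CHR. Macrophages grown with Csf1 divide, and LPS is known to stop their division while it activates the inflammatory programme. All values below are log2 intensities or differences between them, on which 1 unit is a 2-fold change. With bulk RNA, fewer dividing cells and less of a transcript in each cell cannot be told apart.

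Promoters show the elements named above. RefSeq (GRCm38.p6) held promoters for 32 of the 39 measured members, and the 250 bases before the start were searched on both strands for the E2F words TTTGGCGC, TTTCCCGC, TTTCGCGC and TTTGCCGC, the CHR words TTTGAA and TTCGAA, and CCAAT. Words may overlap, as 2 of the E2F words in Mcm6 do. The 5 shown, each 5′ to 3′ in the direction of the gene, are 2 replication genes with an E2F word and 3 mitotic genes with a CHR word. Capitals mark any of the searched words on either strand. They are Mcm6 (chr1:128359706-128359955, minus strand), Dtl (chr1:191575545-191575794, minus strand), Cdc20 (chr4:118437344-118437593, minus strand), Kif11 (chr19:37376132-37376381, plus strand) and Top2a (chr11:99024190-99024439, minus strand).
Mcm6: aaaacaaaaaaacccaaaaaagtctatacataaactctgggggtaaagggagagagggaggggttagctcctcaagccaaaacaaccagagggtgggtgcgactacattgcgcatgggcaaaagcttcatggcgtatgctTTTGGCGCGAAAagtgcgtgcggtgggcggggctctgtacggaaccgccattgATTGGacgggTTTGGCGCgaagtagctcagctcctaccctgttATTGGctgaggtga
Dtl: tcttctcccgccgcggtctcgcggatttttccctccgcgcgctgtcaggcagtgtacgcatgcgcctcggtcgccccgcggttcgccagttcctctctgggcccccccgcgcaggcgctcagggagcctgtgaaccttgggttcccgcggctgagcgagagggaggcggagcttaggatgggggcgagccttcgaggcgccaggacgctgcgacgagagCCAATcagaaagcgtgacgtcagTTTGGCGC
Cdc20: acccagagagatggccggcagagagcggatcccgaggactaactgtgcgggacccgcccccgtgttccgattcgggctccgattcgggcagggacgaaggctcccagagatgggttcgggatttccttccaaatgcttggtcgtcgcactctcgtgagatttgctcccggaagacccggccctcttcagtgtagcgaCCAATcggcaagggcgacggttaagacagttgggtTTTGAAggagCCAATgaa
Kif11: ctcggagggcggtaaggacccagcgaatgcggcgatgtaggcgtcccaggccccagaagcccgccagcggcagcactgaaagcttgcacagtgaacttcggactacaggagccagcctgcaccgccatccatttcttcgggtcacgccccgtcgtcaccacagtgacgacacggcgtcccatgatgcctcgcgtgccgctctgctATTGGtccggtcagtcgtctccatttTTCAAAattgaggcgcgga
Top2a: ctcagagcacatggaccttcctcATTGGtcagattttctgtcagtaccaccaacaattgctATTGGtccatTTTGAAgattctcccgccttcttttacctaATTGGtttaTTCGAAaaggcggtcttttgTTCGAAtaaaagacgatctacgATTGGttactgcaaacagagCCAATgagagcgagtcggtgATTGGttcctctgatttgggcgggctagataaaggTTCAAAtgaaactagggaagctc
The Mcm6 window holds E2F words that begin 110, 106 and 47 bases before the start, and that of Dtl holds 1 that begins 8 bases before it. In Cdc20, Kif11 and Top2a the CHR word nearest the start begins 18, 19 and 23 bases before it. An E2F word was present in 5 of 9 replication members (Mcm5, Mcm6, Mcm7, Cdc6 and Dtl) and in 1 of 17 mitotic members (Cdk1), against 1.86% of the 32851 promoters in the table. A CHR word was present in 8 of 17 mitotic and 2 of 9 replication members, against 17.1% of all promoters. CCAAT stood in 14 of 17 mitotic and 7 of 9 replication members, against 33.8% of all. A member was counted where any of its promoters held the word, while the shares of the table count each promoter. Mcm7 and E2f2 had 2 promoters each, and only 1 of those of Mcm7 held an E2F or CHR word. A match is a string of letters in this window and does not show that a factor binds there.

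All 39 members were measured above the array median (8.05 to 8.13) when averaged over the 18 arrays. The 10 macrophage markers measured averaged 12.8 to 13.2 per array, while the 7 lymphocyte markers averaged 6.68 to 6.92 and the 6 mast cell markers 5.91 to 6.26. Not all other lists were as low. The 8 neutrophil markers averaged 7.85 to 8.89 per array, the 7 stromal markers 7.33 to 8.19 and the 3 erythroid markers 6.83 to 7.19. As these are arrays, precision is limited by their number. The culture HET 1 stood apart from the rest. The SD of gene-wise differences was 0.43 to 0.53 between HET 1 and the other HET arrays of the same treatment, and 0.18 to 0.28 between other arrays of one group.

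**Figure D1:**
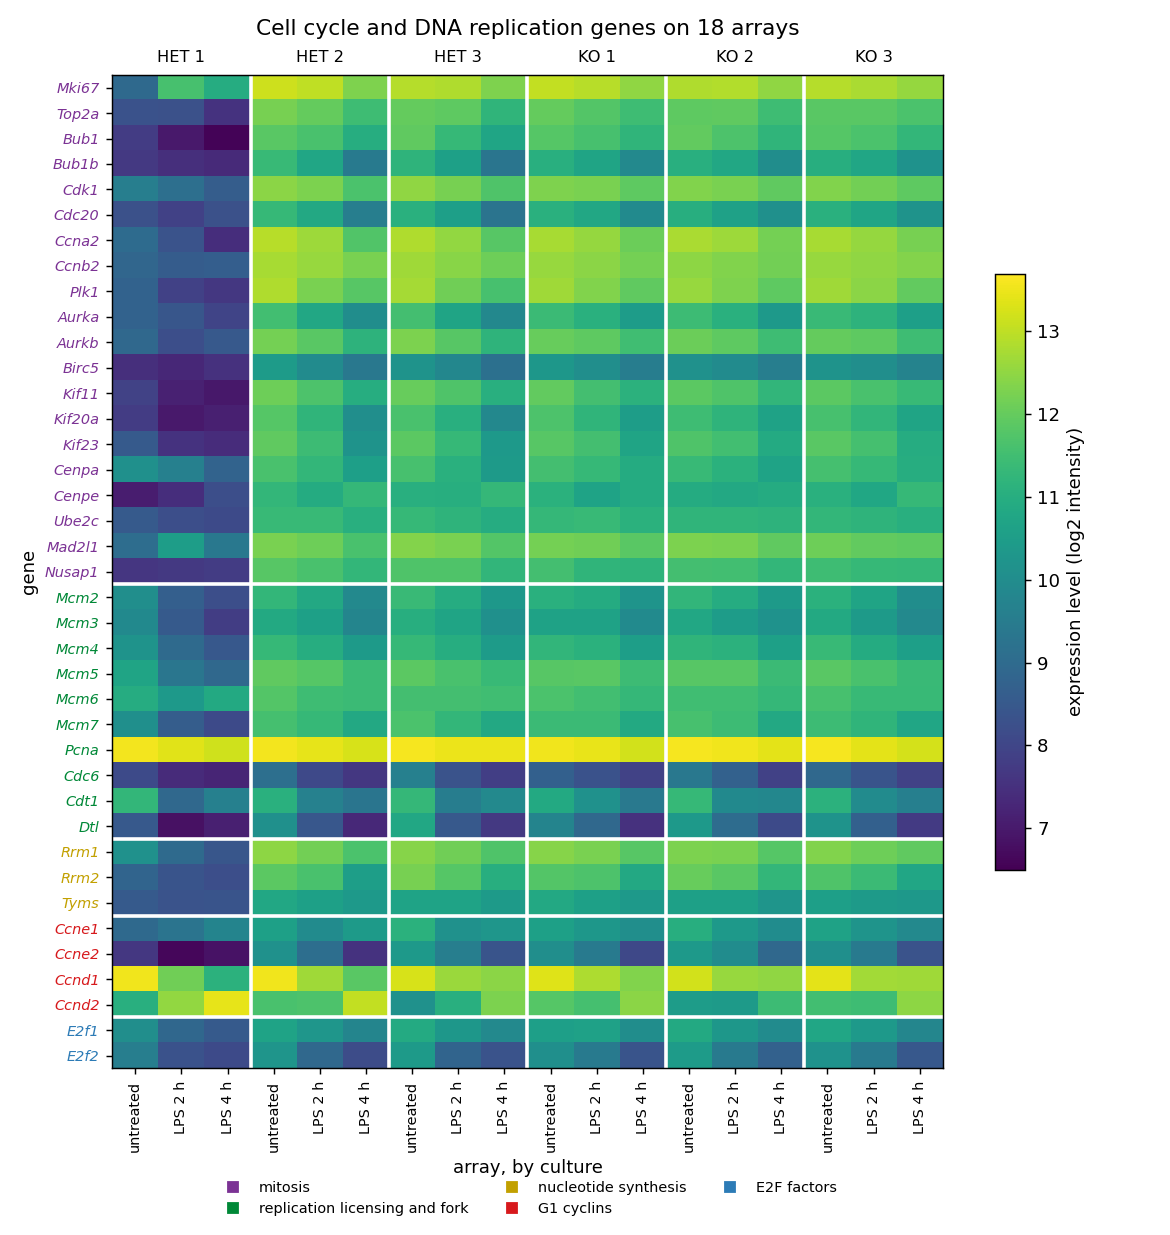
Level (log2 intensity, colour) of the 39 measured genes (rows, coloured by role) on 18 arrays (columns, by culture and treatment). The 20 mitotic genes are darker (lower) in untreated HET 1 than in the other 5 untreated cultures, while Pcna and Ccnd1 are bright in all 6 untreated cultures.

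In untreated HET 1 the mitotic genes stood far below the other cultures, the replication genes stood moderately below, and 4 members stood at or near the mean of HET 2 and HET 3. Plk1, a kinase of mitotic entry, was 8.77 in HET 1, 12.84 in HET 2, 12.73 in HET 3, and 12.67, 12.59 and 12.67 in the KO cultures. Kif11, a motor that separates the spindle poles, was 7.93 in HET 1, 12.10 and 12.03 in the other HET cultures, and 11.96, 11.89 and 11.89 in KO. HET 1 was the lowest of the 6 cultures for both genes, and the other 5 lay close together. Against the mean of HET 2 and HET 3, the median of the 20 mitotic members in HET 1 was -3.68 in untreated cells, -3.57 at 2 h and -2.87 at 4 h. The medians of the 10 replication members were -1.17, -1.83 and -1.23. Over all genes the medians were 0.07, 0.08 and 0.08. HET 1 was over 1 unit lower in 29 of the 39 members at all 3 times, all 20 mitotic members among them, and in 267 of all 19475 genes. That HET 1 was far lower in these genes was known beforehand, so these values describe it and are not a test.

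The 4 exceptions in untreated HET 1 were the sliding clamp Pcna (-0.01 against the mean of HET 2 and HET 3), the licensing factor Cdt1 (0.09) and the D cyclins Ccnd1 and Ccnd2 (0.15 for each). Pcna was read by 2 probe sets with means of 13.44 and 13.42. With HET 1 set aside, the 5 other untreated cultures spanned under 0.5 units in 35 of 39 members. Those over 1 unit were Dtl, a subunit of the ligase that removes Cdt1 during S phase, and Ccnd2.

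Markers of other states differed in HET 1 at the same time. Levels of the 10 antigen presentation and dendritic cell markers were a median of 1.48, 1.38 and 1.10 above HET 2 and HET 3 in untreated, 2 h and 4 h cells, and their summed level was 98.5 to 103.7 in HET 1, 89.0 to 97.2 in HET 2, 81.5 to 90.1 in HET 3 and 81.1 to 92.8 in KO. For the 11 myeloid precursor markers the sum was 83.7 to 85.6 in HET 1, 91.4 to 94.7 in HET 2, 85.2 to 88.0 in HET 3 and 91.6 to 94.9 in KO. The 10 macrophage markers summed to 130.5 to 132.4 in HET 1 and 128.2 to 130.1 in the other cultures. The part of these cells or states in the low level of the cell cycle genes was not tested. Counts of members called are given below with all cultures and without HET 1, and values of single genes with all cultures unless stated. Low levels also limit what HET 1 can show. At 2 h 2 members and at 4 h 3 members lay there below the highest lower quartile of any array (6.99), near the mean of the lymphocyte markers, and no member did on the 15 other arrays. How far this limits the changes in HET 1, and the averages that include it, was not tested.

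**Figure D2:**
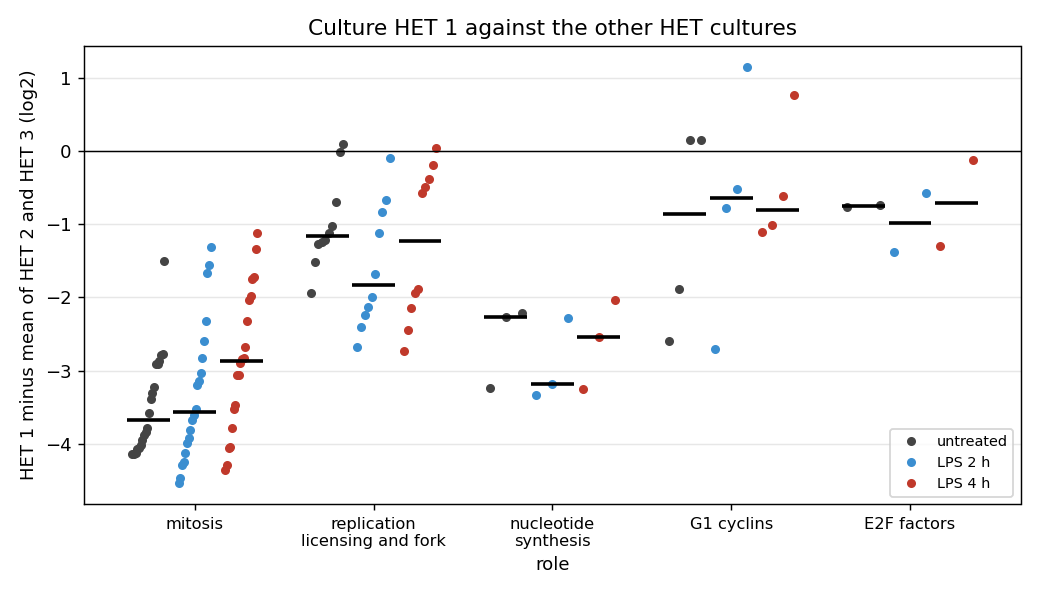
HET 1 minus the mean of HET 2 and HET 3 (log2) for each gene, by role and treatment; each point is 1 gene and each black line the median of a role. The mitotic points lie lowest, with medians of -3.68, -3.57 and -2.87, and the points at or above 0 are all replication genes or G1 cyclins.

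LPS lowered most of the members, more at 4 h than at 2 h. The average response over both genotypes was fitted with limma with each culture as a block, and a gene is said to have fallen or risen where the p-value, adjusted by Benjamini-Hochberg for all genes tested, was under 0.05. At 2 h, 25 of 39 members had fallen and none had risen, against 18.9% of all genes lower and 12.9% higher. At 4 h, 35 had fallen and 1, Ccnd2, had risen, against 29.6% of all genes lower and 29.8% higher. The median over the members was -0.36 at 2 h and -0.90 at 4 h, and over all genes 0.03 and 0.06. Without HET 1 the fallen members numbered 28 (17.2% of all genes) and 37 (28.6%), with medians of -0.28 and -0.84, and all 25 members called at 2 h and all 36 called at 4 h with all cultures were called again. Between 2 h and 4 h, 31 members fell further and 2, Ccnd2 and Cenpe, rose, against 16.1% and 9.36% of all genes. Without HET 1, 33 fell and the same 2 rose, against 18.7% and 9.75%. The counts rest on the pairing: with no culture block only 5 members had fallen at 2 h and 11 at 4 h. The same untreated arrays enter the responses at both times, which are therefore not independent.

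**Figure D3:**
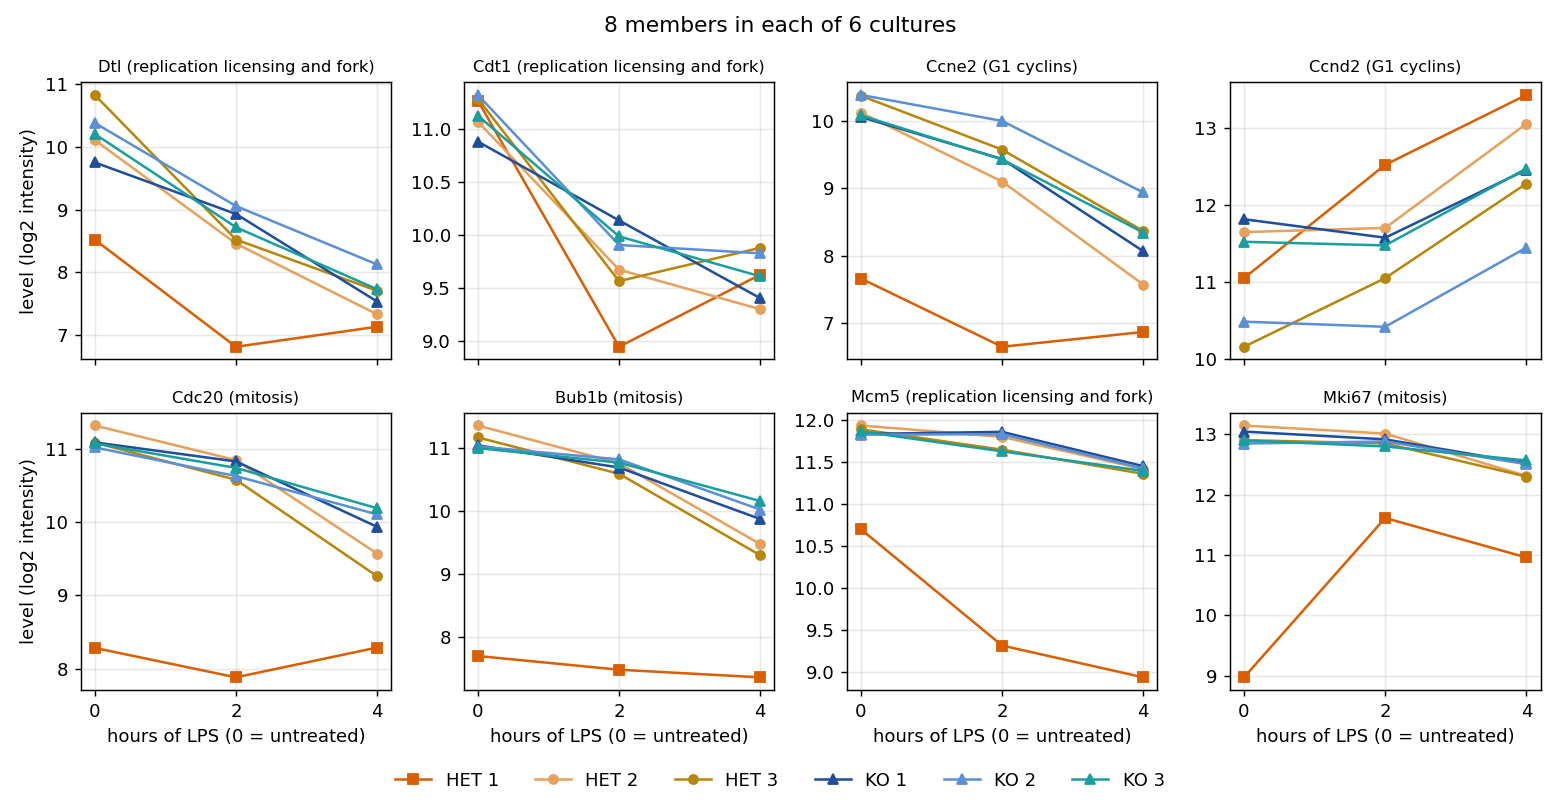
Level (log2 intensity) of 8 genes against hours of LPS (0 is untreated) in each of 6 cultures. Dtl, Cdt1 and Ccne2 fall steeply, Cdc20 and Bub1b fall mostly after 2 h and further in HET 2 and HET 3 than in KO, Ccnd2 is higher at 4 h in all 6, and Mki67 is higher at 4 h than untreated in HET 1 alone.

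The 3 largest average falls at 2 h were those of Dtl, Cdt1 and E2f2, followed by Ccnd1 and the licensing gene Cdc6. E2f2, an activator of S phase genes, was 9.58, 10.26 and 10.42 in untreated HET, 8.30, 8.94 and 8.82 at 2 h, and 8.13, 8.18 and 8.33 at 4 h. In KO it was 10.07, 10.45 and 10.18 untreated, 9.44, 9.44 and 9.44 at 2 h, and 8.36, 8.74 and 8.47 at 4 h. All 6 cultures were lower at 2 h and lower again at 4 h, with changes of -1.10 ± 0.09 (SE, n = 6 cultures, adjusted p = 7.05e-07 in limma) after 2 h and -1.79 ± 0.09 after 4 h (adjusted p = 2.62e-09). E2f1 changed by -0.50 ± 0.10 and -0.97 ± 0.10, although KO 1 was not lower at 2 h (10.56 untreated, 10.63 at 2 h).

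Dtl was 8.52, 10.11 and 10.83 in untreated HET, then 6.81, 8.46 and 8.52 at 2 h, then 7.13, 7.33 and 7.71 at 4 h. KO cultures went from 9.75, 10.38 and 10.20 to 8.93, 9.06 and 8.72 and then to 7.53, 8.12 and 7.73. Untreated and treated levels did not overlap within any culture, and HET 1 alone, at 6.81 after 2 h among the lowest levels measured for any member, was not lower at 4 h than at 2 h. The fitted change was -1.55 ± 0.18 (adjusted p = 2.46e-05) after 2 h. It was -2.37 ± 0.18 (adjusted p = 1.61e-07) after 4 h, the largest fall of any member at both times.

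Cdt1, which loads the replicative helicase onto origins, was 11.27, 11.07 and 11.29 in untreated HET, 8.94, 9.67 and 9.56 at 2 h, and 9.62, 9.30 and 9.88 at 4 h. In KO it was 10.88, 11.32 and 11.13, then 10.14, 9.90 and 9.99, then 9.40, 9.83 and 9.61. Almost all of its fall was present at 2 h, with -1.46 ± 0.12 (adjusted p = 1.36e-06) against -1.55 ± 0.12 (adjusted p = 2.33e-07) later. Cdc6, its partner in loading, changed by -0.78 ± 0.11 and -1.24 ± 0.11.

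Subunits of the replicative helicase, Mcm2 to Mcm7, fell less than Dtl, Cdt1 and Cdc6, and all but Mcm6 fell later. Mcm6 had 56.6% of its 4 h fall at 2 h without HET 1, near the 60.5% of Dtl. Over the 5 cultures without HET 1 their falls at 4 h ran from -0.24 (Mcm6) to -1.06 (Mcm2), and at 2 h from -0.13 (Mcm5) to -0.34 (Mcm2). Mcm5 and Mcm6 were not called at 2 h, with or without HET 1. In HET 1 the fall was larger for most subunits: Mcm5 went from 10.70 to 9.32 and 8.94 there, while HET 2 went from 11.93 to 11.80 and 11.41 and KO 1 from 11.83 to 11.86 and 11.45. Mcm6 was the exception, at 10.96, 10.40 and 10.87 in HET 1. Pcna changed by only -0.30 ± 0.05 at 4 h (adjusted p = 2.26e-04).

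Among the nucleotide synthesis genes, Rrm2, the regulated subunit of ribonucleotide reductase, changed by -0.28 ± 0.10 at 2 h and -0.96 ± 0.10 at 4 h. Rrm1, its partner subunit, changed by -0.35 ± 0.11 and -0.77 ± 0.11, or by -0.20 ± 0.06 and -0.60 ± 0.06 without HET 1. Tyms, which makes thymidylate, was not called at 2 h (-0.13 ± 0.06, adjusted p = 0.0956) and changed by -0.31 ± 0.06 at 4 h.

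The G1 cyclins did not move as a group. Ccne2, an activator of Cdk2 at S phase entry, went from 7.66, 10.13 and 10.38 in untreated HET to 6.64, 9.10 and 9.58 at 2 h and 6.86, 7.57 and 8.37 at 4 h. In KO it went from 10.07, 10.40 and 10.09 to 9.44, 10.01 and 9.43 and then to 8.06, 8.94 and 8.34. Every culture was lower at both times. The change was -0.75 ± 0.18 (adjusted p = 0.0069) after 2 h, and -1.76 ± 0.18 (adjusted p = 3.08e-06) after 4 h. Ccnd1, a D cyclin that links growth factor signals to Cdk4 and Cdk6, changed by -0.79 ± 0.14 and -1.22 ± 0.14.

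Ccnd2, the other D cyclin among the members, was the only member called higher than untreated in the average response. It was 11.04, 11.64 and 10.15 in untreated HET, 12.52, 11.70 and 11.05 at 2 h, and 13.43, 13.05 and 12.28 at 4 h. KO levels were 11.81, 10.48 and 11.52, then 11.57, 10.41 and 11.47, then 12.45, 11.44 and 12.47. All 6 cultures were higher at 4 h, by 1.41 ± 0.13 on average (adjusted p = 9.59e-07), and at 2 h the 3 HET cultures were higher and the 3 KO cultures lower than untreated. Over all genes, 1.11% had their HET cultures on one side and their KO cultures on the other at 2 h. The difference in the 2 h response was -0.93 ± 0.26 (adjusted p = 0.167) and was not called. That at 4 h was -1.12 ± 0.26 (adjusted p = 0.0721, or -0.91 ± 0.21 and 0.0567 without HET 1), and every KO change was smaller than every HET change.

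Ccne1, the other E cyclin, moved in opposite directions in the 2 genotypes between 2 h and 4 h. Its changes in that interval were 0.46, 0.45 and 0.14 in HET and -0.25, -0.42 and -0.35 in KO, so that each HET culture was higher and each KO culture lower at 4 h than at 2 h. This pattern, in either direction, was seen in 2.15% of all genes, and Ccne1 was the only member of 39 to show it. The count is thus near the share of all genes, and the difference itself was not tested. At 2 h it was lower than untreated in HET 2, HET 3 and all KO cultures, and went from 8.97 to 9.28 in HET 1.

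The timing of the fall varied between members, and the roles overlapped. Without HET 1, the fall at 2 h was 14.2% to 49.2% of the fall at 4 h over the 19 mitotic members called at 4 h, with a median of 30.4%. For the 10 replication members the median was 41.0%, with the 3 highest values in Cdt1 (86.2%), Cdc6 (62.6%) and Dtl (60.5%) and the lowest in Mcm5 (27.4%). Mcm2, Mcm3, Mcm4, Mcm5 and Mcm7, at 27.4% to 35.3%, lay within the mitotic range. The 3 nucleotide synthesis members had a median of 32.8% (24.7% to 35.6%). The fraction was 59.4% for E2f2, 44.9% for E2f1, 96.2% for Ccne1, 66.3% for Ccnd1 and 36.6% for Ccne2. The 5 replication members with an E2F word in the window spread over that range, from Mcm5 (27.4%) and Mcm7 (31.5%) to Mcm6 (56.6%), Dtl and Cdc6. Cdt1, with the highest value, had none of the searched words in these 250 bases. Presence depends on the window, as 7 of 9 replication members held an E2F word once 50 bases after the start were added. These fractions describe the members and were not compared by a test.

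**Figure D4:**
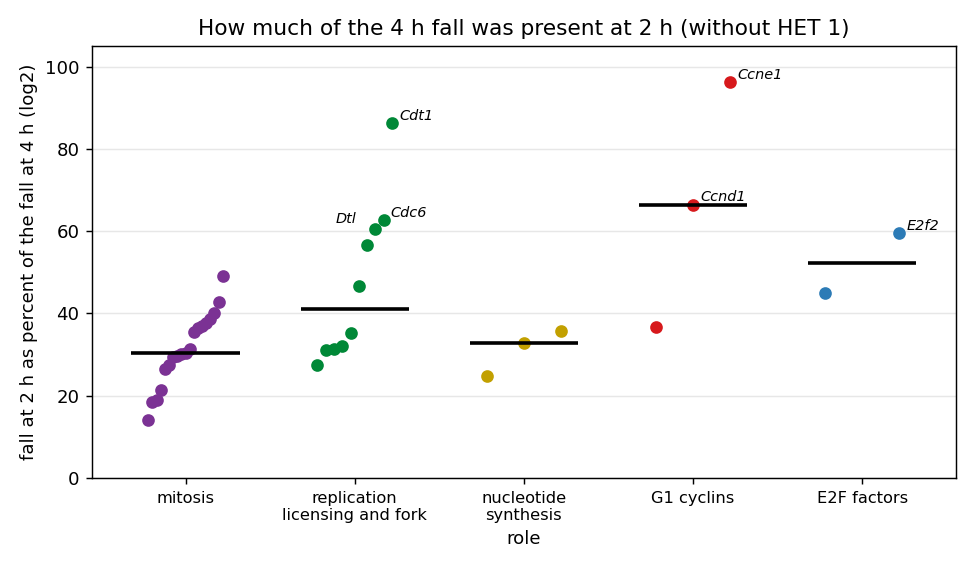
Fall at 2 h as a percent of the fall at 4 h (both log2, 5 cultures without HET 1) for the 37 members called lower at 4 h, by role; each point is 1 gene and each black line the median of a role. Mitotic members reach 49.2% at most, and Cdt1 (86.2%) and Ccne1 (96.2%) stand highest.

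The mitotic genes that fell furthest at 4 h were regulators of mitotic exit and of the spindle. Cdc20, which activates the anaphase ligase, was 8.28, 11.31 and 11.08 in untreated HET, 7.88, 10.84 and 10.57 at 2 h, and 8.29, 9.57 and 9.26 at 4 h. In KO it was 11.08, 11.01 and 11.07, then 10.82, 10.62 and 10.74, then 9.93, 10.10 and 10.19. Every culture but HET 1 was lower at 4 h, and the change was -1.09 ± 0.20 (adjusted p = 3.84e-04), or -1.38 ± 0.06 without HET 1. Bub1b, a spindle checkpoint protein, changed by -1.19 ± 0.16 (-1.44 ± 0.06 without HET 1), and the kinase Aurka by -1.12 ± 0.09. The motors of late mitosis Kif20a and Kif23 changed by -1.18 ± 0.14 and -1.20 ± 0.11.

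Cdk1, the kinase that drives mitosis, and its cyclins moved less far. Ccna2 changed by -0.93 ± 0.07 at 4 h, Cdk1 by -0.62 ± 0.05 and Ccnb2 by -0.37 ± 0.06. Plk1 changed by -0.90 ± 0.05 and had the highest share of that fall at 2 h among the mitotic members, 49.2% without HET 1. The falls at 4 h of Ube2c, the ligase partner that marks cyclins for removal, and of Nusap1, a spindle protein, were -0.26 ± 0.05 and -0.28 ± 0.08.

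Of the mitotic members, 3 were not called at 4 h with all cultures. Mki67, which encodes the proliferation marker Ki-67, went from 8.97 to 11.61 and 10.96 in HET 1, from 13.14 to 13.01 and 12.31 in HET 2 and from 12.90 to 12.85 and 12.30 in HET 3. Its HET change at 4 h was 0.18 ± 0.42 (adjusted p = 0.719) with HET 1 and -0.72 ± 0.09 (adjusted p = 3.55e-05) without. Mad2l1, a spindle checkpoint protein, also stood higher in HET 1 after LPS (9.07, 10.51 and 9.38), and its average fall was called without that culture (-0.44 ± 0.05). Cenpe, a kinetochore motor, was not called on average with or without HET 1 (0.26 ± 0.12, adjusted p = 0.0696, and 0.09 ± 0.08, adjusted p = 0.336). It was the other member called higher in HET at 4 h (0.48 ± 0.16, adjusted p = 0.0235), a call lost without HET 1 (0.15 ± 0.12, adjusted p = 0.324). From 2 h to 4 h it rose by 0.38 ± 0.12 (adjusted p = 0.0275), or 0.30 ± 0.08 without HET 1.

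In untreated cells no member was called between KO and HET, against 0.359% of all genes lower and 0.0565% higher in KO, or 0.534% and 0.0719% without HET 1 (limma, group means). None had an unadjusted p under 0.05 with all cultures, and 4 had one without HET 1. Such unadjusted counts, here and below, are given without the share over all genes and are not read as results. The median KO minus HET difference was 0.79 with HET 1 and -0.12 without, so that HET 1 set the sign. Without it, 37 of 39 members lay below 0, the lowest being Cdc6 at -0.38, and Ccnd2 was the highest at 0.37.

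After 4 h of LPS all 3 KO cultures stood above HET 2 and HET 3 in 16 of 20 mitotic members, against 16.9% of all genes. The 4 others were Top2a, Ccnb2, Cenpe and Nusap1, in which the genotypes overlapped. Bub1b at 4 h was 9.48 in HET 2, 9.30 in HET 3, and 9.88, 10.03 and 10.16 in KO. Kif20a was 10.05 and 9.86 in those HET cultures and 10.51, 10.64 and 10.72 in KO. Neither gene overlapped between the genotypes, and HET 1 (7.36 and 7.13) lay lower still. Among the members, 7 were called higher in KO without HET 1 (Bub1b 0.63 ± 0.10, Cdc20 0.66 ± 0.12, Ccna2 0.38 ± 0.07, Aurka 0.53 ± 0.08, Aurkb 0.29 ± 0.06, Kif20a 0.67 ± 0.10 and Kif23 0.58 ± 0.09), against 2.92% of all genes higher and 1.6% lower. Here and at 2 h the fit had no term for culture and treated all arrays as independent, although arrays of a culture deviated together. Without HET 1 it set only HET 2 and HET 3 against the 3 KO cultures. With HET 1, none was called by limma, against 1.32% higher and 1.1% lower, and 1 had an unadjusted p under 0.05. At 2 h, Aurka (0.35 ± 0.08) and E2f2 (0.56 ± 0.12) were called higher without HET 1, against 0.842% of all genes higher and 1.3% lower. With HET 1 none was called by limma, against 1.22% and 1.54%, and 2 had an unadjusted p under 0.05.

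The difference between genotypes in the change from untreated to 4 h was tested within cultures. With all cultures, 2 members were called, both mitotic and both with a smaller fall in KO, against 0.303% of all genes higher. Ccna2, the cyclin of S phase and mitotic entry, changed by -1.58, -1.18 and -1.02 in HET and by -0.69, -0.57 and -0.53 in KO. The centromere histone Cenpa changed by -1.34, -1.07 and -1.19 in HET and by -0.61, -0.68 and -0.58 in KO. The groups did not overlap for either gene, and the differences were 0.66 ± 0.13 (adjusted p = 0.047) and 0.58 ± 0.10 (adjusted p = 0.0284). All KO changes also lay above all HET changes in 12.1% of all genes, and in 33.8% of those called lower without HET 1. Both calls were lost on leaving out any 1 KO culture, with quantile normalization, with no culture block and with the block as a random effect. Over 14 alternatives the adjusted p ran from 0.0233 to 0.957 for Ccna2, which was not called in 8, and from 0.0123 to 0.885 for Cenpa, which was not called in 7. Without HET 1, 8 members were called, all mitotic, against 0.868% of all genes: Bub1b (0.87 ± 0.11), Kif20a (0.81 ± 0.11), Cdc20 (0.80 ± 0.12), Kif23 (0.71 ± 0.12), Aurka (0.67 ± 0.11), Cenpa (0.51 ± 0.10), Ccna2 (0.50 ± 0.11) and Aurkb (0.49 ± 0.10). For the change from untreated to 2 h no member was called with or without HET 1, against 0.0462% of all genes higher and 0.113% lower with all cultures and 0.00513% and 0.0308% without HET 1. By limma, 8 and 10 had an unadjusted p under 0.05, but without the share over all genes these counts show no genotype effect.

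**Figure D5:**
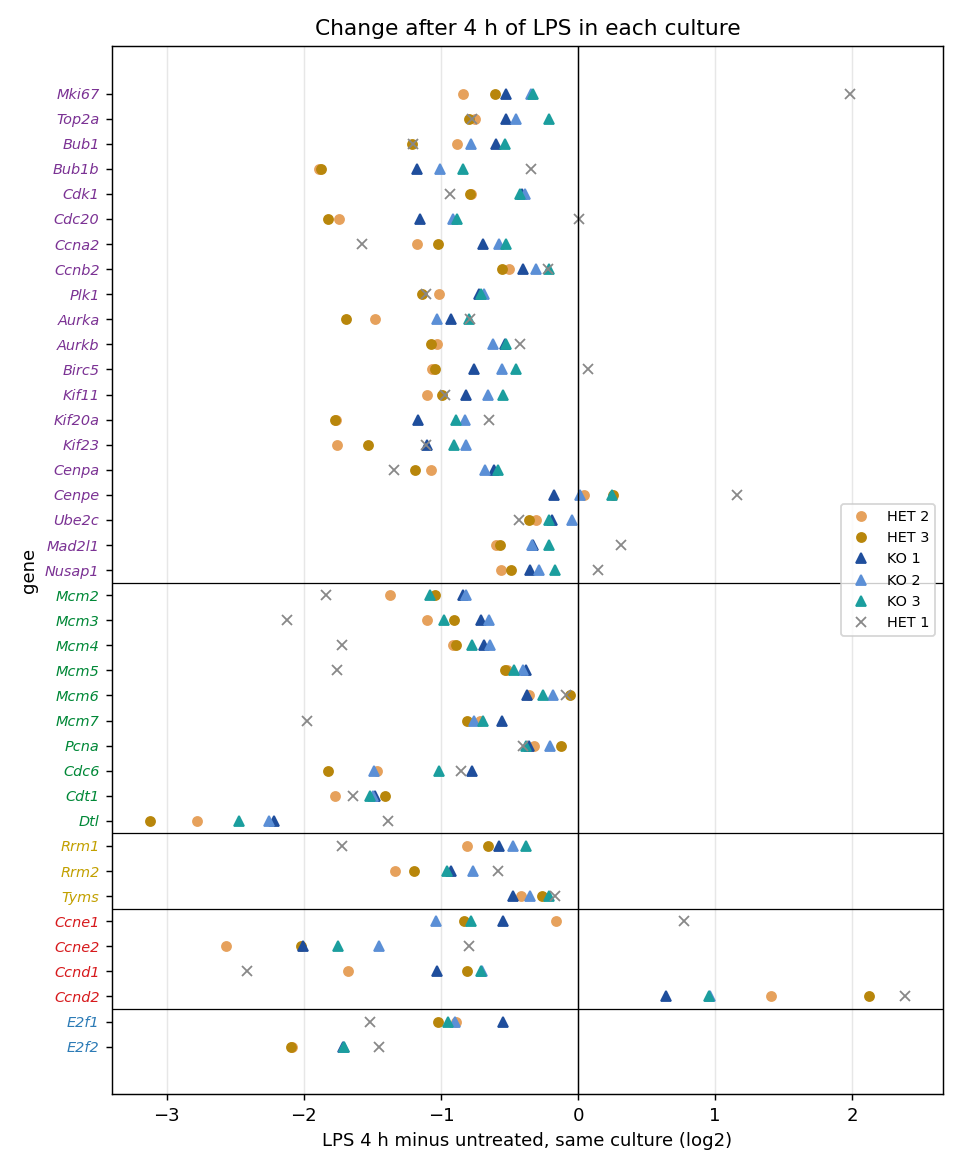
LPS 4 h minus untreated (log2) in each culture, for each gene, with circles for HET 2 and HET 3, triangles for KO and crosses for HET 1. In 19 of 20 mitotic genes the 3 triangles lie to the right of both circles, while the crosses lie on either side.

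Across the mitotic members but Cenpe the KO fall was smaller than that of HET 2 and HET 3. All 3 KO changes at 4 h lay above both HET changes in 19 of 20 mitotic members and in 26 of 39 members, against 16.5% of all genes. The KO fall was a median of 55.1% of the HET fall in the 19 mitotic members called lower (45.4% to 65.7%). Replication members reached a median of 79.1%, from 66.4% in Cdc6 to 141% in Pcna, and E2f1 and E2f2 stood at 83.4% and 82.0%. A smaller fall in KO was common among other genes too. Over all 5577 genes called lower at 4 h without HET 1, the median was 68.8% (quartiles 55.6% and 85.3%), and the 3 KO changes lay above both HET changes in 42.9% of them. When HET 1 was counted among the HET cultures, all KO changes lay above all HET changes in 12 of 39 members, 9 of them mitotic, against 12.1% of all genes and 33.8% of those called lower. The roles stood closer in the lists of other genes described below. The median KO share was 62.0% in 55 other mitosis genes called lower and 68.5% in 41 other replication genes. All 3 KO changes lay above HET 2 and HET 3 in 81.8% and 75.6% of them. With HET 1 counted, the order reversed, to 5.45% and 48.8%.

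Most members also fell at 4 h within each genotype. In HET, 23 members had fallen and 1, Ccnd2, had risen at 2 h, against 18.1% of all genes lower and 9.73% higher. At 4 h in HET, 33 had fallen and 2, Ccnd2 and Cenpe, had risen, against 28.3% lower and 26.7% higher. In KO, 6 had fallen and none had risen at 2 h, against 4.01% lower and 4.13% higher. At 4 h in KO, 31 had fallen and 1 had risen, against 17.9% lower and 10.7% higher. All 39 members had a KO mean below untreated at 2 h. Without HET 1 the falls numbered 24 and 36 in HET (12.9% and 24.9% of all genes), where Ccnd2 was called higher at 4 h alone, and 14 and 36 in KO (7.84% and 21.8%, with 5.69% of all genes higher at 2 h). The KO differences themselves are the same in both fits, and only the pooled spread differs.

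Other genes of the same processes were taken from lists of known function. At 4 h, where 29.6% of all genes fell and 29.8% rose, 41 of 45 other replication genes fell and 2 rose, and 51 of 58 other mitosis genes fell and 1 rose. Without HET 1, 41 and 55 fell, against 28.6% of all genes. The largest falls were in Pole2, a subunit of the leading strand polymerase (-1.81 ± 0.14), and in the kinesin Kif18a (-1.66 ± 0.23). The mitosis gene that rose was Pttg1, the securin that restrains the separation of sister chromatids (1.37 ± 0.08). Among 15 other nucleotide synthesis genes 14 fell and Dck, a salvage kinase, rose (1.17 ± 0.11). At 2 h, 36 of the 45 replication genes and 26 of the 58 mitosis genes had fallen, against 18.9% of all genes, or 34 and 44 without HET 1, against 17.2%.

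Of 13 other cyclins, kinases and their switches, 11 fell and 1 rose at 4 h, with or without HET 1, against the same shares of all genes. Fbxo5, which restrains the anaphase ligase, showed the largest fall, from 8.05, 10.88 and 11.00 in untreated HET to 6.47, 7.60 and 7.91 at 4 h, and from 10.58, 10.72 and 10.43 to 7.99, 8.80 and 8.71 in KO (-2.36 ± 0.18, adjusted p = 1.7e-07). Among the E2F, Rb and DREAM subunits, 12 of 15 fell and 1 rose, E2f6 (-1.51 ± 0.11) and the late repressors E2f7 (-1.15 ± 0.15) and E2f8 (-1.15 ± 0.24) among those that fell. Of 15 inhibitors and antiproliferative genes, 6 rose and 5 fell, near the 29.8% and 29.6% of all genes, with rises in Gadd45b (2.25 ± 0.13) and Btg2 (1.53 ± 0.08) and a fall in the Cdk4 and Cdk6 inhibitor Cdkn2c (-1.34 ± 0.10).

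In the list of growth factor and Myc network genes, 6 of 11 fell and 4 rose at 4 h with or without HET 1, against 29.6% and 29.8% of all genes with all cultures. Myc, a driver of cell growth, was 12.59, 12.26 and 12.19 in untreated HET and 9.85, 9.80 and 11.20 at 4 h. In KO it was 12.01, 11.97 and 12.08 untreated and 11.26, 12.03 and 11.96 at 4 h. Every KO culture was above every HET culture at 4 h, with a KO minus HET difference of 1.47 ± 0.32 (adjusted p = 0.0268, or 1.25 ± 0.31 and 0.0401 without HET 1), while the difference in the 4 h response was 1.79 ± 0.43 and was not called (adjusted p = 0.0801, or 0.145 without HET 1). Mxd1, which competes with Myc for its partner Max, rose by 3.52 ± 0.13 in HET and 2.46 ± 0.13 in KO, a difference of -1.06 ± 0.19 (adjusted p = 0.0308, or 0.00776 without HET 1). Csf1 itself rose by 3.26 ± 0.09.

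Of genes outside the lists, those most like the median of the mitotic members over the 18 arrays were Prr11 (Pearson r 0.997), Cip2a (0.996), H2bc3 (0.995), Zwilch (0.994), H4c6 (0.994), H2ac4 (0.993), H2bc14 (0.993) and Pclaf (0.993). HET 1 spans most of that range, and over the 15 other arrays r was 0.885 (Pclaf) to 0.973 (Zwilch). The histone genes belong to families of near-identical copies, so probe sets may not tell their members apart.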

How the data were processed

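Expression was measured on 18 Affymetrix gene arrays. The authors deposited log2 values per probe set made with RMA in Partek 6.5, per the submitters' processing notes; its settings were not stated, and array upper quartiles differed (9.84 to 10.23). Values were used as deposited. Of 25344 probe sets, 21137 had 1 gene in the platform's annotation, and the probe set with the highest mean stood for each of the 19475 genes. Limma 3.58.1 in R 4.3.3 was fitted to all genes: LPS responses with culture (genotype and number) as a fixed block (8 residual degrees of freedom, 6 without HET 1), KO minus HET with group means (12), adjusted p under 0.05 over all genes. The fits were tested on simulated data. The members and lists were chosen with earlier results of these data known. The named genes are all members, Wbp7, up to 4 called and 2 other genes of each list per contrast, and the 8 genes most like the mitotic median. Pairing rests on the array correlations: numbers deviated together within a genotype, but between genotypes in only 6 of 27 pairs (r -0.35 to 0.39). Promoters came from RefSeq; 7 measured members without an entry there were not searched. Python 3.11.15 with matplotlib 3.10.9 made the plots. Alternatives were 2 scalings, dim genes left out, probe set means, an intensity trend, array weights, other blocks, arrays of each time alone, a longer promoter window and each culture left out.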

Additional observations from a re-analysis of the deposited data

Results flagged for a closer look

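Differences between the genotypes in the LPS response marked 4 results. The fall at 4 h was smaller in KO than in HET for Ccna2 (difference 0.66) and Cenpa (difference 0.58), both tested within cultures. Neither gene overlapped between the 3 HET and 3 KO cultures. The same was seen, with KO above HET, in 12.1% of all genes and 33.8% of those called lower without HET 1. Both calls were lost on leaving out any 1 KO culture, with no culture block and with the block as a random effect. Ccnd2 was higher at 2 h than untreated in all 3 HET cultures and lower in all 3 KO cultures, with a difference of -0.93 that was tested and not called (limma adjusted p = 0.167). Its changes were small in HET 2 (0.05), KO 2 (-0.07) and KO 3 (-0.05), against 1.47 in HET 1, 0.89 in HET 3 and -0.24 in KO 1. Ccne1 was higher at 4 h than at 2 h in all 3 HET cultures and lower in all 3 KO cultures, with a difference of -0.69 that was not tested. Over all genes, 1.11% had the genotypes on opposite sides at 2 h, and 2.15% between 2 h and 4 h.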

How the results depend on the processing

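Counts of members called follow, with the reported count in brackets. Probe set means, the intensity trend and arrays of each time alone kept every count within 1.5 times the reported one. Leaving out each culture in turn gave, at 2 h, 16 to 28 average falls (25; 16 without KO 3) and 0 to 1 rises (0), and at 4 h 32 to 37 falls (35) and 1 to 2 rises (1). From 2 h to 4 h it gave 21 to 33 falls (31; 21 without KO 1) and 1 to 2 rises (2). In HET it gave 22 to 24 falls (23) and 0 to 1 rises (1) at 2 h, and 30 to 36 falls (33) and 1 to 2 rises (2) at 4 h. In KO it gave 2 to 14 falls at 2 h (6; 2 without KO 2 or KO 3, 14 without HET 1) and 19 to 36 at 4 h (31; 19 without KO 1). The difference in the 2 h response gave 0 to 1 lower (1 without HET 2), that in the 4 h response 0 to 8 higher (2; 0 without any 1 KO culture, 8 without HET 1) and 0 to 1 lower (1 without HET 2). KO minus HET gave 0 to 2 higher at 2 h (0) and 0 to 7 at 4 h (0; 7 without HET 1). The HET change of Mki67 at 4 h (0.18) ranged from -0.72 without HET 1 to 0.69 without HET 2.

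The pairing by culture changed most counts of the LPS response. With no replicate block, and with the replicate block as a random effect, average falls at 2 h numbered 5 and 7, average falls at 4 h 11 and 20, falls from 2 h to 4 h 1 and 7 (rises 0 and 1), HET falls at 2 h 5 and 6 (rises 0 and 0), HET falls at 4 h 7 and 17 (rises 1 and 1), KO falls at 2 h 2 and 3, KO falls at 4 h 6 and 9 (rises 0 and 0), and differences in the 4 h response 0 and 0. KO minus HET at 2 h gave 1 higher with the block within genotype, with the block on the number across genotypes, with dim genes left out and with array weights. Arrays centred on their medians gave 2 average rises at 4 h and 1 difference in the 4 h response, and quantile normalization gave 0. Array weights gave 1 HET rise at 4 h, 14 KO falls at 2 h, 1 higher difference in the 2 h response, and 4 higher and 1 lower at 4 h. The causes of these shifts were not tested. Over 300 bases, 50 of them after the start, E2F words stood in 2.26% of all promoters and 77.8% of replication members (55.6% before), CCAAT in 37.4%, and CHR words in 19.2% and in 76.5% of mitotic members (47.1% before).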

Other observations

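Some untreated cultures differed in part of the G1 and S phase genes in a way that did not follow genotype or number. This was noticed in the data and is given as a description. The pair of cultures was picked from these same values, so the count that follows is not a test. With HET 1 set aside, HET 3 and KO 2 were the highest 2 of 5 cultures in 11 of 39 members, against 15.9% of all genes: Cdc6, Cdt1, Dtl, Mcm7, Rrm2, Ccne1, Ccne2, E2f1, E2f2, Bub1 and Mad2l1. By role these were 4 of 10 replication members, 1 of 3 nucleotide synthesis members, 2 of 4 G1 cyclins and both E2F factors. Only 2 of the 20 mitotic members were among them. Cdc6 was 9.65 in HET 3 and 9.39 in KO 2, against 9.14 in HET 2, 8.70 in KO 1 and 8.95 in KO 3. Ccne1 was 11.11 and 11.02 in that pair and 10.59 to 10.66 in the other 3. Ccnd2 went the other way, at 10.15 in HET 3 and 10.48 in KO 2 against 11.64, 11.81 and 11.52. The other D cyclin among the members, Ccnd1, spanned 13.20 to 13.53 over the same 5 cultures and was also lowest in that pair.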
